A study of Mus musculus with 3 samples.

Results

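Sprouty feedback genes and ETS transcription factors of the Ras and ERK pathway were followed in 3 media in J774A.1, an established macrophage-like cell line of the mouse. The 10 genes were Spry1, Spry2, Spry4, Spred1, Spred2, Elk1, Elk3, Elk4, Ets2 and Etv3. They were taken by name, as all 20 probes whose gene name in the scanner files equals one of them, out of 41125 probes for 27572 genes. RNA was taken after 6 h in RPMI medium, in Earle's Balanced Salt Solution (EBSS), or in EBSS to which 10 µM SB202190 was added. SB202190 inhibits MAP kinases of the p38 group. The control medium held 10% fetal bovine serum. EBSS holds glucose and salts but no amino acids, and the labels name no serum for it, so amino acid and serum withdrawal cannot be told apart. The design text can also be read as RPMI throughout; the source names of the samples were followed here.

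The RNA was hybridised on 3 two-colour arrays that form a loop, RPMI (Cy5) with EBSS (Cy3), EBSS (Cy5) with EBSS plus SB202190 (Cy3), and EBSS plus SB202190 (Cy5) with RPMI (Cy3). Each medium is 1 sample, read once in each dye. No separate cultures are named, so no p-value was computed between media, and each error below is a technical standard error (SE) from the loop, which leaves out the spread between cultures. The sources used here do not say whether the cells in EBSS alone received the solvent of SB202190. Inhibition of p38 and of any other target of the compound cannot be told apart.

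Growth factors, serum and the macrophage growth factor CSF1 switch on Ras, which drives the kinase cascade RAF, MEK and ERK. Sprouty (Spry) and Spred proteins are induced by this pathway in many cells and hold it back upstream of ERK. ERK in turn phosphorylates ETS-family transcription factors. Elk1, Elk3 and Elk4 are the ternary complex factors, which bind beside serum response factor (SRF) at promoters of early response genes, Ets2 is an activator linked to CSF1 signalling in macrophages, and Etv3 is a repressor linked to growth arrest of macrophages.

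The promoters of the members that moved most, Spry2 and Elk3, are shown with one of the Elk4 promoters, which has an ETS motif. Each is the 250 bases before the start site on the reading strand, from RefSeq on build GRCm38.p6, which is not the build of the probes. The Spry2 promoter lies at chr14:105896820-105897069 (minus strand), that of Elk3 at chr10:93311160-93311409 (minus strand) and that of Elk4 at chr1:132007370-132007619 (plus strand). Capitals mark the motifs found.

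Spry2: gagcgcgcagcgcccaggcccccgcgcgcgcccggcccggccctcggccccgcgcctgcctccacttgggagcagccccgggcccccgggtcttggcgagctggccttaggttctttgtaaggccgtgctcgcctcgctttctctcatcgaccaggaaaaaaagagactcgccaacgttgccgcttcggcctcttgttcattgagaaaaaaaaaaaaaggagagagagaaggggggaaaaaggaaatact

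Elk3: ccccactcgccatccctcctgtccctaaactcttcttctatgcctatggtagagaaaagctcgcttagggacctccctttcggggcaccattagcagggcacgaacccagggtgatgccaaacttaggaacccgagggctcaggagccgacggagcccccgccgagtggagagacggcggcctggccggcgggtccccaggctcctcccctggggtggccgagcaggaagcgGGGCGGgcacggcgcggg

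Elk4: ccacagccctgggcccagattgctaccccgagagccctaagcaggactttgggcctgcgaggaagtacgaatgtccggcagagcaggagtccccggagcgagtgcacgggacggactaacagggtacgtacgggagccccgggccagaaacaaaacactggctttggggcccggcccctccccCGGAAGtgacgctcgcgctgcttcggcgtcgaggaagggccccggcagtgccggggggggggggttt

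The letters searched, on both strands, were CGGAAG (an ETS motif), TGANTCA (AP-1), TGACGT (the core of a cAMP response element), GTAAACA (FOXO), GGGCGG (GC box), CCAAT and the CArG box bound by SRF. They were chosen with the expression values known. The RefSeq table holds 11 promoters of the members, from all except Spry4. The ETS motif was in 5 of these 11, which belong to Elk4, Spred1, Spred2 and Etv3, and in 13.6% of all 32851 promoters. The GC box, which can overlap the ETS motif, was in 9 of the 11 and in 32.7% of all. The windows are not independent: Elk4 has more than 1, and its promoters 2 and 3 overlap and share a GC box. The member windows held 55.2% to 74.4% G and C. None of the 11 held a CArG box, an AP-1 motif or a FOXO motif, against 1.47%, 6.75% and 3.17% of all promoters. TGACGT was in 1 (Spred2) and CCAAT in 2 (Spry1 and Elk1), against 6.47% and 33.8% of all. In the windows shown, Elk3 has 1 GC box, 18 bases before its start, Elk4 has an ETS motif 67 bases before its start, and Spry2 has none of the motifs. A match here is a description of letters only.

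Levels are normalized log2 intensities and are compared between media for 1 probe, never between probes. A gene is represented by its brightest probe. It was taken as measured in a comparison when, in 1 or both of the media compared, that probe exceeded background clearly on each of the 2 arrays (the scanner software's own mark). A call of higher or lower required a log2 ratio over the loop of at least 1 in size, and required that the array that held both media and the path through the other 2 arrays each gave at least 0.5 in the same direction. Ratios fitted over the loop are given as log2 ratio ± technical SE.

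In EBSS against RPMI, by their brightest probes, Elk3 fell 7.33-fold and Spry2 rose 2.02-fold. The other probe of Elk3 was 4.74-fold lower, and that of Spry2 differed by 1.02-fold. The 5 other measured members were not counted. Of the 10 members 7 were measured, and 1 was counted as higher and 1 as lower. Calls of higher made up 4.48% and calls of lower 2.82% of all 11870 measured genes. In such RNA from whole cultures, fewer cells of a kind and less RNA per cell cannot be told apart. The members' median log2 ratio was -0.04, and that of all measured genes 0.0025. At this number of members, 1 call in each direction says nothing about the group.

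**Figure D1:**
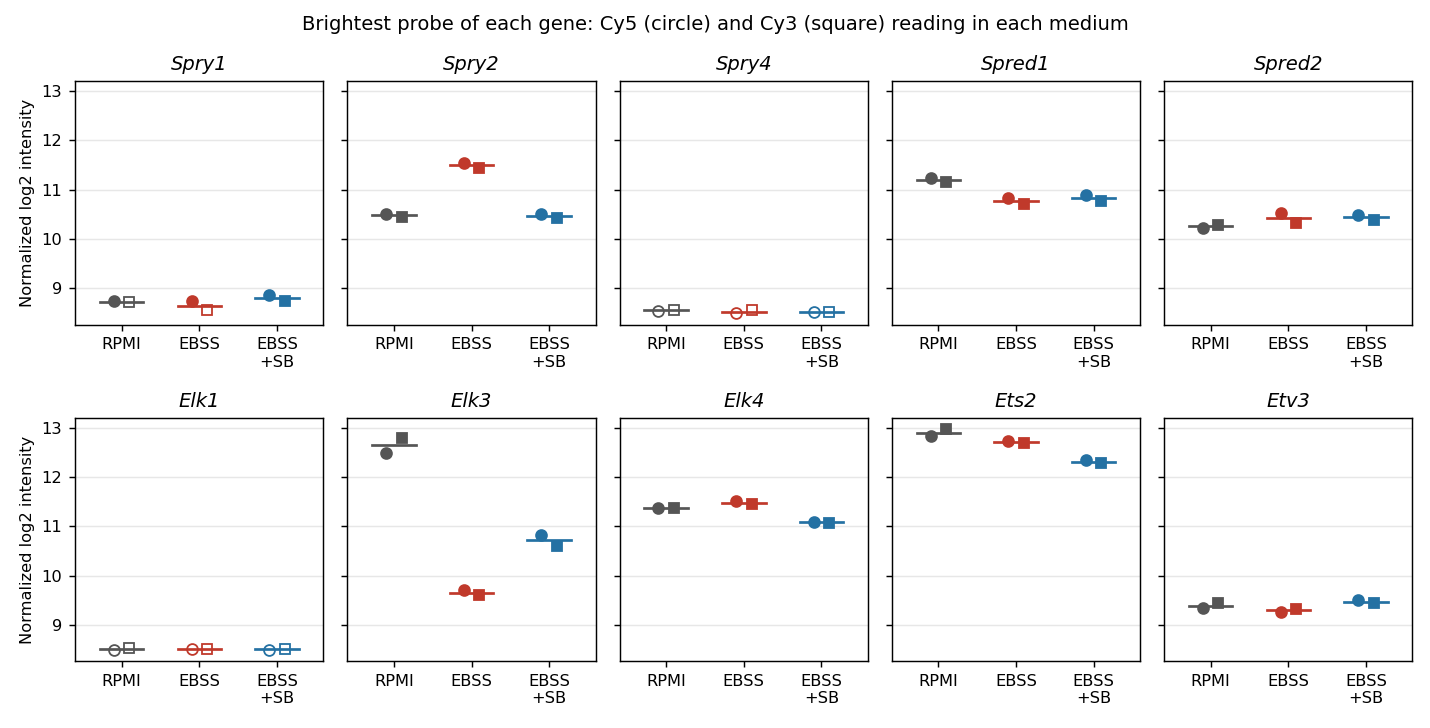
Normalized log2 intensity (vertical axis) of the brightest probe of each gene in RPMI, EBSS and EBSS with SB202190. Circles are Cy5 readings, squares Cy3 readings, lines their mean, and open symbols readings not well above background. Elk3 sits between 12.49 and 12.79 in RPMI and between 9.61 and 9.70 in EBSS, and Spry2 is high only in EBSS among the 3 media, at 11.44 and 11.54.

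Among the Sprouty genes, Spry2 encodes an inhibitor of receptor tyrosine kinase signalling to Ras. Its brightest probe read 10.51 and 10.44 in RPMI, 11.54 and 11.44 in EBSS, and 10.50 and 10.42 in EBSS with SB202190, in Cy5 and Cy3. Both EBSS readings lay above all 4 readings of the other media, which overlapped each other. The fitted ratio was 1.01 ± 0.11 for EBSS against RPMI, or 2.02-fold, with 0.93 from the array that held both media and 1.18 through the other arrays.

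With SB202190 in EBSS, Spry2 fell by 1.04 ± 0.11, with -1.12 and -0.87 on the 2 paths, to a level that differed from RPMI by -0.03 ± 0.11. The comparisons share the EBSS sample, so its level enters both values. Spry2 was the 523rd highest of 11870 genes in EBSS and the 302nd lowest of 11690 with the inhibitor. Both ratios lie just past the size of 1 that was required, and neither is counted on every path: the array of both media alone does not count the rise, and the path through the other arrays does not count the fall.

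The second Spry2 probe did not show the difference. It starts 516 bases from the brightest one and was dim, at 8.76 and 8.73 in RPMI, 8.86 and 8.74 in EBSS, and 8.81 and 8.80 with SB202190 (Cy5, Cy3), with 4 of the 6 readings well above background. Its ratios were 0.03 ± 0.07 for EBSS against RPMI and -0.0026 ± 0.07 with SB202190. The accession of the dim probe belongs to Spry2 in the RefSeq table used here, whereas that of the brightest one has no entry there, so its gene rests on the name in the scanner files. With the median of both probes, Spry2 stands at 0.52 in EBSS and at -0.52 with SB202190 and is not counted.

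Spry1 and Spry4 encode inhibitors of the same pathway, and both lay at the limit of the arrays. Spry1 read 8.73 and 8.72 in RPMI, 8.74 and 8.56 in EBSS and 8.86 and 8.75 with SB202190 (Cy5, Cy3), and both readings were well above background only with SB202190, where they lay just above the 4 others. Its ratio was 0.11 ± 0.07 for SB202190 in EBSS and 0.03 ± 0.07 for the inhibitor medium against RPMI, and it was not counted. With the scanner's own ratios it stood at 1.09 for SB202190 in EBSS. Both Spry4 probes, between 8.48 and 8.56 in all 6 channels, were well above background nowhere, so a difference between media was not detectable for Spry4 at this signal. Spry3 and Spred3, the remaining genes of both families, were also above background nowhere.

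Spred1 and Spred2 encode Sprouty-related inhibitors that act on the step from Ras to RAF. Spred1 read 11.24 and 11.15 in RPMI, 10.83 and 10.70 in EBSS, and 10.89 and 10.76 with SB202190 (Cy5, Cy3). Both RPMI readings were above the 4 others, and the readings of the 2 EBSS media overlapped. The ratio was -0.43 ± 0.11 in EBSS, with -0.54 and -0.19 on the 2 paths, and -0.38 ± 0.11 in EBSS with SB202190 against RPMI, so Spred1 was not counted in either.

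The other 2 Spred1 probes were also highest in RPMI, with ratios of -0.13 ± 0.09 and -0.18 ± 0.07 in EBSS, and of -0.18 and -0.20 in EBSS with SB202190 against RPMI. SB202190 in EBSS gave 0.04 ± 0.11 for the brightest probe. These 3 probes lie up to 10129 bases apart. Spred2 read 10.21 and 10.29 in RPMI, 10.53 and 10.33 in EBSS, and 10.49 and 10.39 with SB202190, with ratios of 0.19 ± 0.11, -0.06 ± 0.11 and 0.13 ± 0.11 in the 3 comparisons. Its second probe was dim, with ratios from -0.02 to -0.0017.

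**Figure D2:**
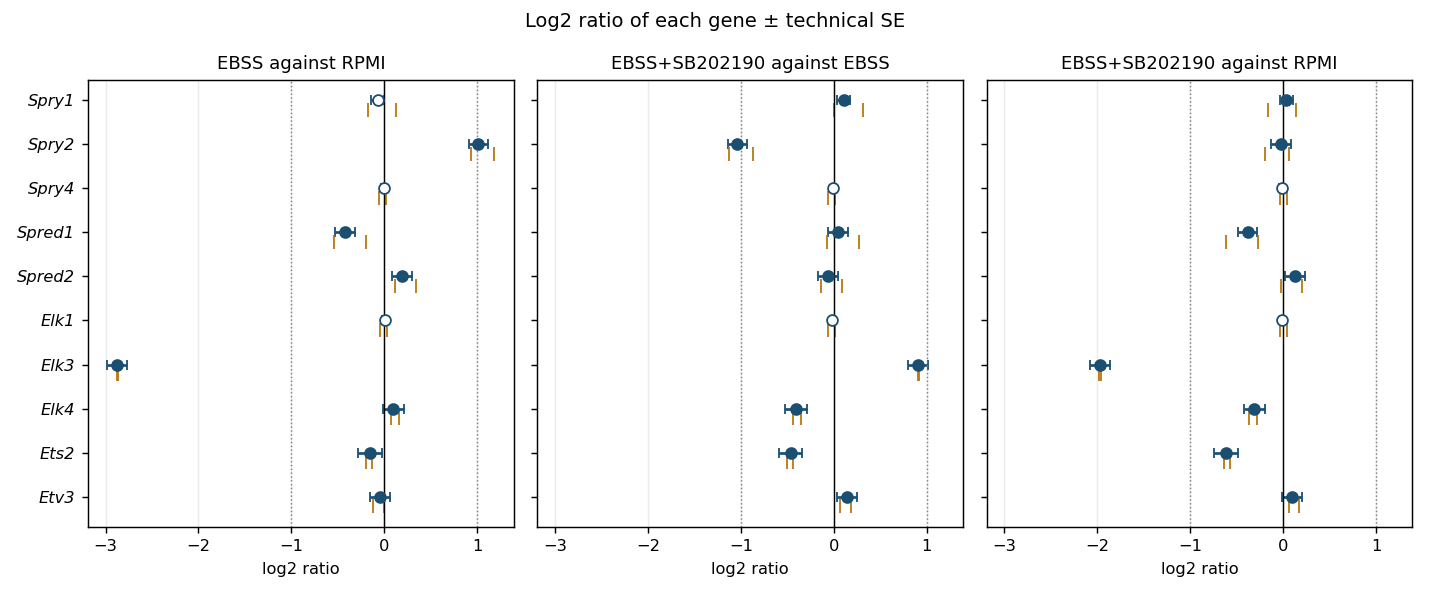
Log2 ratio (horizontal axis) of each gene in the 3 comparisons, as points with bars of ± 1 technical SE. The brown ticks are the array that held both media and the path through the other arrays, open points were not measured, and the dotted lines mark a size of 1. Elk3 at -2.87 in EBSS lies far outside the other genes, and Spry2 moves from 1.01 in EBSS to -0.03 in EBSS with SB202190 against RPMI.

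Among the ternary complex factors, Elk3 showed the largest difference of all members. Elk3, also called Net, represses its targets in resting cells and can become an activator after phosphorylation by ERK. Its brightest probe read 12.49 and 12.79 in RPMI, 9.70 and 9.61 in EBSS, and 10.83 and 10.60 in EBSS with SB202190 (Cy5, Cy3). The readings of the 3 media did not overlap. The ratio for EBSS against RPMI was -2.87 ± 0.11, or 7.33-fold lower, and the 2 paths gave -2.88 and -2.86. Elk3 was the 7th lowest of 11870 measured genes.

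With SB202190 in EBSS, the Elk3 ratio was 0.91 ± 0.11 (1.87-fold), with 0.90 and 0.92 on the 2 paths, short of the size of 1 required, so it was not counted. It exceeded its technical error many times over, and it was the 159th highest of 11690 measured genes in that comparison. In EBSS with SB202190 against RPMI, Elk3 was counted as lower, at -1.97 ± 0.11 or 3.91-fold, as the 27th lowest of 11859 genes. Its level with the inhibitor thus lay between those of EBSS and RPMI.

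The second Elk3 probe, which starts 172 bases from the first, gave the same order of the media. It read 11.59 and 11.48 in RPMI, 9.32 and 9.16 in EBSS, and 10.08 and 9.80 with SB202190, again without overlap. Its ratios were -2.24 ± 0.11 for EBSS against RPMI (4.74-fold lower), 0.66 ± 0.11 for SB202190 in EBSS, with 0.48 and 1.02 on the 2 paths, and -1.58 ± 0.11 for EBSS with SB202190 against RPMI. RefSeq gives this second probe to Elk3, whereas the brightest Elk3 probe, like that of Spry2, has its gene from the scanner name only. Both Elk3 probes were thus counted as lower in both comparisons with RPMI. The probes lie on chromosome 10 of build mm8, from 92679177 to 92679236 and from 92679349 to 92679406, and the bright Spry2 probe lies on chromosome 14 from 104777767 to 104777826. Which exon or untranslated region they cover was not analysed here.

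Of the other ternary complex factors, Elk4 did not follow Elk3, and Elk1 was too dim to be compared. Elk4, also known as SAP-1, read 11.38 and 11.38 in RPMI, 11.51 and 11.45 in EBSS and 11.09 and 11.07 with SB202190 (Cy5, Cy3). The 3 media did not overlap, but the differences were small, at 0.10 ± 0.11 for EBSS against RPMI, -0.41 ± 0.11 for SB202190 in EBSS and, for EBSS with SB202190 set against RPMI, -0.31 ± 0.11. None was counted. The other 3 Elk4 probes lay between 8.48 and 8.70, and each was well above background in at most 1 reading of a medium. Elk1, with 1 probe between 8.48 and 8.52, was well above background nowhere, so that no difference was detectable.

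**Figure D3:**
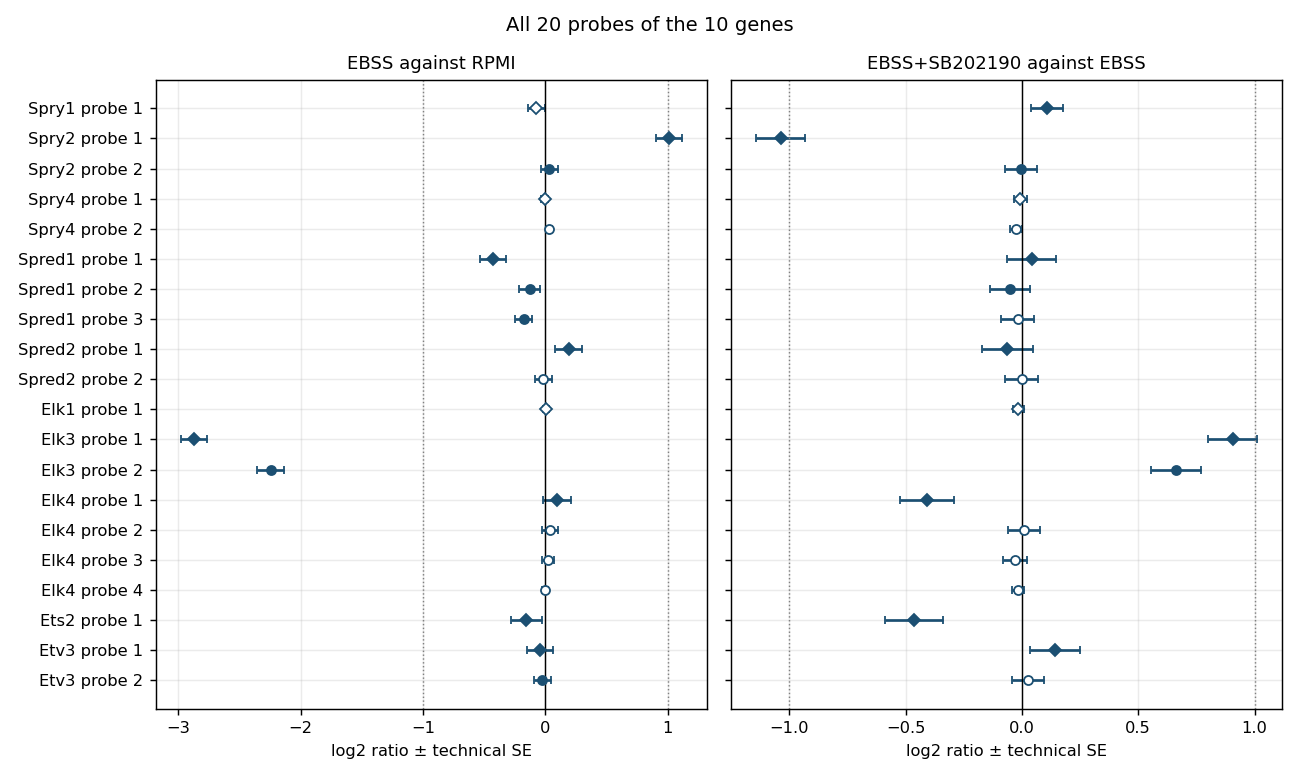
Log2 ratio (horizontal axis, ± 1 technical SE) of all 20 probes, on the left in EBSS against RPMI and on the right for SB202190 in EBSS, with diamonds for the brightest probe of each gene and open symbols for probes not measured in that comparison. Both Elk3 probes lie below -2 in EBSS, whereas only the brighter of the 2 Spry2 probes departs from 0.

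Ets2 was well above background in all 6 readings. It read 12.82 and 12.97 in RPMI, 12.72 and 12.69 in EBSS, and 12.33 and 12.28 with SB202190 (Cy5, Cy3), and the 3 media did not overlap. The ratios were -0.15 ± 0.13 for EBSS against RPMI, -0.46 ± 0.13 for SB202190 in EBSS, and -0.62 ± 0.13 for the inhibitor medium against RPMI, all short of the size required. Etv3 read 9.33 and 9.44 in RPMI, 9.26 and 9.33 in EBSS, and with SB202190 both readings exceeded those in EBSS while overlapping those in RPMI. Its ratios of -0.04 ± 0.11, 0.14 ± 0.11 and 0.10 ± 0.11 were about as large as their errors, and its second, dim probe gave -0.02 to 0.03.

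With SB202190 in EBSS, 8 members were measured, 1 was counted as lower (Spry2) and 0 as higher, where the calls of lower were 2.93% and those of higher 0.89% of 11690 genes. The members' median was -0.01 and that of all genes 0.0005. In EBSS with SB202190 against RPMI, 1 of 8 measured members was counted as lower (Elk3) and 0 as higher. There the calls of lower were 2.43% and those of higher 1.47% of 11859 genes, and the medians were -0.17 for the members and 0.01 for all genes. By family, the 4 measured ETS members had medians of -0.10, -0.13 and -0.46 in the 3 comparisons, and the Sprouty and Spred members 0.19 (3 measured), -0.01 (4) and 0.0042 (4). No test of a group was made.

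**Figure D4:**
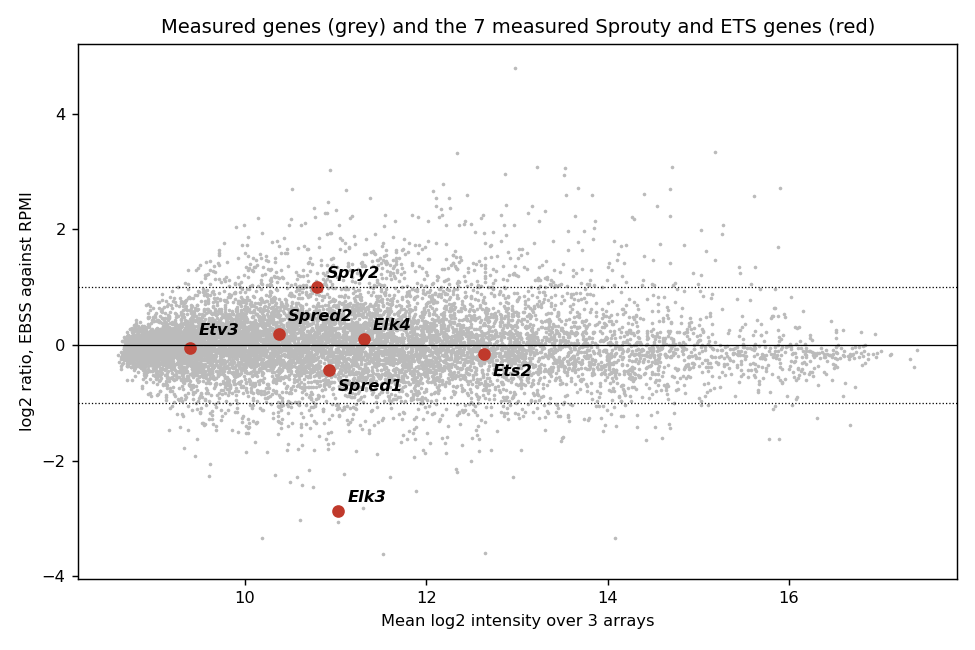
Log2 ratio of EBSS against RPMI (vertical axis) against the mean log2 intensity over the arrays (horizontal axis) for 11870 measured genes in grey and the 7 measured members in red, with dotted lines at a size of 1. Elk3 lies at the lower edge of the cloud and Spry2 at the upper threshold, and the 5 other members lie within it.

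Genes with the most similar 2 ratios (EBSS against RPMI, SB202190 in EBSS) were sought among 10432 genes measured in both, by Euclidean distance on the log2 scale. Nearest to Elk3 were Sapcd2 (-3.06 and 0.90, distance 0.18), Ccnd1, which encodes cyclin D1 (-3.03 and 0.48, distance 0.46), and Tnfaip8l1 (-2.46 and 0.63, distance 0.49).  Nearest to Spry2, by its brightest probe, were Cab39 (1.01 and -1.03), Dot1l (1.04 and -1.05) and Zc3hav1 (1.02 and -1.01), all within 0.03. The other Spry2 probe stood at 0.03 and -0.0026. Cab39, Dot1l and Zc3hav1 have 3 probes each, and only the brightest of each was compared. These likenesses rest on 3 samples of which 1, EBSS, enters both ratios.

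Other genes of the pathway were looked up from lists chosen with earlier results of these data known. Of 21 other ETS family genes on the array 11 were measured in EBSS against RPMI, with 1 higher, Etv1 (1.33 ± 0.11), 0 lower and a median of -0.06. This count depends on the scaling. The scanner's own ratios gave 3 higher and 2 lower, equal spread between arrays 4 and 0, and median centring 5 and 0. Of all 11870 measured genes, 962 were higher and 1094 lower from the scanner's own ratios. Equal spread gave 637 and 376 for all genes, and median centring 4252 and 23. Elf2 (0.9995 ± 0.11) and Elf1 (0.99 ± 0.11) lay just short of a call. With SB202190 in EBSS 1 of 10 was lower, Gabpa, the DNA-binding subunit of GA-binding protein (-1.03 ± 0.11, with ratios below 0 for its other 2 probes too), and 0 were higher, around a median of -0.49. Against RPMI, EBSS with SB202190 had 0 of 11 counted. At these numbers of genes, 1 call says nothing about a list. SRF itself was not counted. Its cofactor gene Mrtfa rose in EBSS (1.14 ± 0.13, with 0.21 for its other probe), as the 1 counted of 2 measured genes of that list. With SB202190 in EBSS, Mrtfa stood at -0.98 ± 0.13, just short of a call, with -0.11 for its other probe. It was counted as lower there from the scanner's own ratios (-1.01), with equal spread (-1.28) and with median centring (-1.73).

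Among genes of the cascade above ERK, at most 1 was counted per comparison in the main setting. At this size of list, such a count does not set the list apart from all measured genes. Over all measured genes, calls of higher made up 4.48% and calls of lower 2.82% for EBSS against RPMI. For SB202190 in EBSS these shares were 0.89% and 2.93%, and for EBSS with SB202190 against RPMI 1.47% and 2.43%. Of 23 measured adaptor, Ras, RAF, MEK and ERK genes in EBSS against RPMI 1 was counted, Rasa3, which encodes a Ras GTPase-activating protein (-1.16 ± 0.12, with -0.38 for its other probe), and the median was 0.04. With SB202190 in EBSS, Rasa3 was the 1 of 24 counted, as higher (1.45 ± 0.12, with 0.66 for its other probe), around a median of 0.11, and 0 of 24 were counted in EBSS with SB202190 against RPMI. With median centring of the arrays in place of loess, 13 of the 23 were counted as higher in EBSS. So were 4252 of all 11870 measured genes at that setting. The list median was 1.06 against 0.81 for all measured genes. Rasa3 was then at -0.04 and, for SB202190 in EBSS, at 0.79, so it was counted in neither.

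ERK-induced target and feedback genes went both ways in EBSS. Of 17 measured, 5 fell and 1 rose, with a median of 0.03, where 2.82% of all measured genes fell and 4.48% rose. The balance depends on the scaling. From the scanner's own ratios, where Egr1 stood at 2.12 against 0.86 here, 5 fell and 3 rose, as with equal spread. With median centring, where all genes shift by 0.81, 4 fell and 5 rose. Of all 11870 measured genes, 1094 fell and 962 rose from the scanner's own ratios. With equal spread 376 fell and 637 rose, and with median centring 23 fell and 4252 rose. The genes of the list named next are those of the main setting. The genes that fell were Dusp6, an ERK phosphatase (-3.61 ± 0.13), Id1 (-3.34 ± 0.11, with -3.13 for its other probe), Ccnd1 (-3.03 ± 0.11), Fos (-2.27 ± 0.11) and Phlda1 (-1.53 ± 0.11, or -0.78 with median centring). The anti-apoptotic Mcl1 rose (1.20 ± 0.18, with 0.70 for its other probe). Elk3 was also counted as lower in EBSS. Spry2, a feedback gene too, was counted as higher by its brightest probe only, with 0.03 for its other probe. A common cause was not tested.

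Over all measured genes, 2.93% were counted as lower and 0.89% as higher with SB202190 in EBSS. Another set of the ERK-induced list fell there, 5 of 17, with 0 higher and a median of -0.41. The scanner's own ratios gave 8 lower, 1 higher (Ccnd1, 1.44) and a median of -0.89. Equal spread gave 6 lower, 1 higher (Dusp6, 1.05) and a median of -0.20, and median centring 6 lower and 0 higher. Of all 11690 measured genes, 772 were lower and 782 higher from the scanner's own ratios. Equal spread gave 619 and 259 for all genes, and median centring 769 and 18. The 5 that fell in the main setting were Plaur, the urokinase receptor gene (-2.06 ± 0.13), Junb (-1.68 ± 0.18), Dusp4 (-1.44 ± 0.18), Myc (-1.21 ± 0.11, with -0.97 and -0.31 for its other probes) and Egr1 (-1.21 ± 0.11). From the scanner's own ratios, Egr1 stood at -4.01 and Myc at -2.96. The other probes of Plaur (-2.24), Junb (-1.58) and Dusp4 (-2.04) had the same sign. Of all measured genes, 2.43% fell and 1.47% rose in EBSS with SB202190 against RPMI. In that comparison 8 of 17 genes of the list fell and 0 rose, around a median of -0.90. The largest falls were those of Id1 (-3.38), Dusp6 (-3.16), Fos (-2.78), Ccnd1 (-2.55) and Junb (-2.16). The scanner's own log ratios gave 10 lower and a median of -1.63, where 773 of all 11859 measured genes were lower.

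The cells carried the label's markers: all 9 macrophage genes looked up were well above background in all 6 channels. Of these markers 2 were counted as lower with SB202190 in EBSS, Cd14 (-1.56) and Fcgr1 (-1.31), where 2.93% of all measured genes were. The same 2 were counted against RPMI (-1.94 and -1.38), where 2.43% of all were. The other Fcgr1 probe gave -0.84 and -0.97, short of the size required. With median centring Fcgr1 stood at -0.93 against RPMI and was not counted. The part of both markers in the other results was not tested. Of 12 markers of other cell types on the array 1 was above background throughout, the globin gene Hba-a1, and 7 were above it nowhere. Between 40.1% and 49.9% of the spots of a channel were well above background, and the 2 dye readings of a medium correlated across genes at 0.995 to 0.997. The median technical SE was 0.11, a precision limited by there being only 3 arrays.

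The sizes of these values depend on the normalization. With median centring in place of loess, all measured genes had a median of 0.81 in EBSS against RPMI, -0.45 for SB202190 in EBSS and 0.34 for the inhibitor medium against RPMI. Relative to that shift, Elk3 stood at -2.73, 0.94 and -1.77, and Spry2 at 1.16, -1.20 and -0.02. Higher genes were then 99.5%, 2.29% and 62.8% of all calls in the 3 comparisons, against 61.4%, 23.3% and 37.7% here, and for the scanner's own log ratios 46.8%, 50.3% and 38.0%. Those scanner ratios were larger for Elk3, at -3.72 in EBSS and 1.64 with SB202190, where Elk3 was counted as higher.

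**Figure D5:**
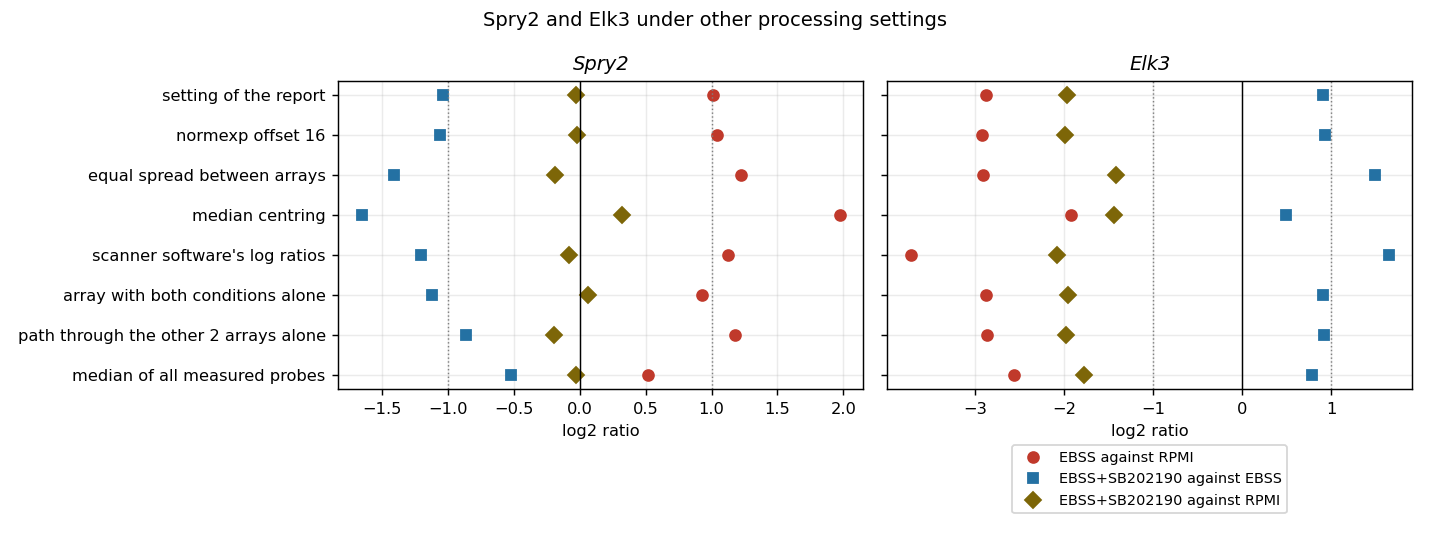
Log2 ratio (horizontal axis) of Spry2 and Elk3 in the 3 comparisons under 8 processing settings, one per row, with dotted lines at a size of 1. Elk3 stays between -3.72 and -1.92 for EBSS against RPMI, and Spry2 between 0.52 and 1.97.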

How the data were processed

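Spots were read from the array scans by Agilent Feature Extraction 9.5.3.1, as the deposited file headers state. For each dye, the deposited columns used hold a spot's mean intensity and its local background's median intensity, neither of them normalized, per the file headers. The software's log10 ratios (Cy5 over Cy3), per the file headers, come from processed intensities: background and a spatial trend subtracted, and dyes normalized. Marks for other properties (clear signal over background, saturation, outliers, controls) are deposited too. The authors' series table holds log2 ratios that equal those of the processed intensities, Cy5 over Cy3, without centring; their medians were -0.0854, -0.0766 and -0.166.

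From the mean intensities, background was corrected with normexp (offset 50, on all spots) and arrays were normalized by loess with control spots at weight 0 (limma 3.58.1, R 4.3.3). The offset draws ratios of dim probes towards 0. Levels by channel were also quantile-normalized on the mean intensity. Left out were control spots (1639 of 45018) and, on each array, 136 to 178 outlier spots. No spot was saturated. Spots of 1 probe were averaged, and 49 of 41174 probes were dropped, none of them of a member. Further steps used Python 3.11.15, numpy 2.4.6, pandas 2.3.3 and matplotlib 3.10.9, and the loop fit was tested on simulated data.

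The loop was solved by least squares for each ratio, and a dye effect of a probe cancels. The technical SE is that of the gene's bin, from the robust SD of the sum of ratios around the loop in 30 bins of intensity, and the 2 paths of a gene can differ by more. Of the 20 member probes 12 have an accession that the RefSeq table (assembly GRCm38.p6) gives to the same gene, and the others keep the name in the files. The brightest probes of Spry2, Spred1, Spred2, Elk1, Elk3 and Elk4 are among those others. For all probes, 24330 were named by accession, 6288 by a current symbol and 2421 by a synonym; 8066 more stayed as the scanner files name them. The genes named were all members, the counted genes of the context lists up to the 5 largest per list and comparison, and the 3 genes nearest in pattern to each member counted in EBSS against RPMI. Mcl1, SRF, Elf1, Elf2, Spry3, Spred3 and Hba-a1 were named after their values were seen. The members and lists were chosen with earlier results of these data known. Alternatives were the scanner software's ratios, the series table, offset 16, median centring, equal spread between arrays, 2 filters on dim probes, each path alone, the median of probes and sizes of 0.5 and 1.5.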

Additional observations from a re-analysis of the deposited data

How the results depend on the processing

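With 1 sample per medium, these settings show technical dependence only. Elk3 was counted as lower in EBSS against RPMI under every setting tried. Spry2 was counted there except on the array of both media alone, with the median of probes and at a size of 1.5, which leave 1 member each; median centring counts 5, adding Spred2 (1.06), Elk4 (1.13) and Ets2 (1.03), whose values moved with all genes. For SB202190 in EBSS, 2 members were counted with the scanner software's ratios, the series table, equal spread and a size of 0.5, as Elk3 was added, and 0 on the path through the other arrays, with the median of probes and at a size of 1.5. For EBSS with SB202190 against RPMI, 2 were counted at a size of 0.5, with Ets2 added. Over all genes, the main counts were 867, 446 and 462 in the 3 comparisons. The scanner software's ratios and the series table gave 2056, 1554 and 1247, median centring 4275, 787 and 242, a size of 0.5 gave 2890, 2113 and 1925, and a size of 1.5 gave 265, 109 and 131. Equal spread gave 878 for SB202190 in EBSS and 242 for the inhibitor medium against RPMI. Except for the sizes, the cause was not tested. No member counted in the main setting changed sign in that comparison under any other setting. Ets2, counted in EBSS against RPMI with median centring, went from -0.15 in the main setting to 1.03. Spry1, dim in most channels, moved from -0.07 to -1.13 in EBSS and from 0.11 to 1.09 with SB202190 when the scanner software's ratios were used, and was not counted. Spry4, Elk1 and the second probes of Spry2, Spred2 and Elk4 are limited by their signal over background. No paired analysis was possible because each medium is 1 sample.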
